A study of Mus musculus with 6 samples.

Results

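Elastic fibres give skin, arteries, lung and muscle connective tissue their recoil. A core of cross-linked elastin is laid down on a scaffold of microfibrils, which are built from fibrillins and bound by small microfibril-associated glycoproteins. Fibulins bring tropoelastin, microfibrils and the cross-linking lysyl oxidases together, and fibroblasts and smooth muscle cells make most of these proteins. The genes described here were taken by name as a group of 10: elastin (Eln), the fibrillins Fbn1 and Fbn2, the fibulins Fbln1, Fbln2, Fbln5, Efemp1 and Efemp2, and the microfibril-associated glycoproteins Mfap2 and Mfap5. All probe sets annotated to a single one of these genes were taken from both value tables. This gave 16 probe sets for 8 of the 10 genes, among 18033 genes measured in all. Fbn1 and Efemp2 had no such probe set in the annotation given and were not analysed here.

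The samples were myospheres, sphere cultures grown from hind-leg muscle of male Balb/c mice after enrichment by fluorescence-activated sorting for Sca1, a surface antigen of muscle-resident mesenchymal and other progenitor cells. The culture lasted 4 days in neurocult, a medium for neural stem cells, with LIF, B27, EGF and a supplement spelled bf6f in the labels, and total RNA came from 2000000 cells at passage 1, in a volume of 5 µL described as small. Each of replicates 1, 2 and 3 was measured on 2 Affymetrix chips, MOE430A and MOE430B, which makes 6 arrays in 1 group with no second condition. The labels give a single submitter sample number and do not say that the replicates were separate cultures, so every spread and p-value below measures only the differences between these arrays, which may be technical. With no second condition, the design asks which genes gave signal above background in these cells, and how far the replicates differed.

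Values are MAS5 signals, a linear intensity scaled by the authors to a common mean on every array. A signal was read against a background limit, the 95th percentile on the same array of probe sets for genes of unrelated tissues such as odorant receptors, defensins and gamma crystallins. For replicates 1, 2 and 3 the limit stood at 819.1, 784.1 and 821.6 on MOE430A, and at 3237, 2929 and 2542 on MOE430B. Probe sets that passed it in every replicate are called above background, and so are genes with 1 or more such probe sets. Between replicates, the log2 signals of MOE430A correlated at 0.916 to 0.922 and those of MOE430B at 0.749 to 0.773, across probe sets, which are not independent replicates. The control probe sets at the 3′ end of Gapdh read 13.8-fold above those at its 5′ end on MOE430A and 15.4-fold on MOE430B. The added hybridisation controls were highest in replicate 2 for 9 of 9 probe sets on each chip. The MOE430A chips came from 1 lot, and the MOE430B chip of replicate 1 came from another lot than those of replicates 2 and 3.

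Of the 8 measured genes, 7 (87.5%) were above background: Eln, Fbln1, Fbln2, Fbln5, Efemp1, Mfap2 and Mfap5. Over all genes measured, 36.4% were above background by the same rule. That share rose with probe sets per gene, from 22.3% with 1 to 42.7% with 2 and 59.2% with 3 or more. Efemp1 had 1 probe set, Fbln1 had 3 and the other measured genes of the group had 2. The pooled 36.4% is therefore not matched for the number of probe sets. Probe sets ending in _x_at, _s_at or _a_at are here called of shared sequence, with other genes or among transcripts of 1 gene. Without them the count was 5 of 8, beside 30.8% of all genes. Fbln1 and Fbln2 were lost, both of which had passed through an _a_at probe set. All 8 genes had a probe set on MOE430A, and on that chip alone the count was again 7 of 8, beside 42.7% of 12370 genes. Fbn2, a fibrillin made mainly in embryonic tissue, was the 1 measured gene that was not above. The median distance from the limit, taken over genes at the probe set furthest above it, was 2.85-fold for these 8 genes. For all genes it was 0.756-fold, again not matched for the number of probe sets. By probe sets, 8 of 11 on MOE430A were above background, beside 35.6% of all single-gene probe sets of that chip. On MOE430B 1 of 5 was above, beside 13.7%.

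**Figure D1:**
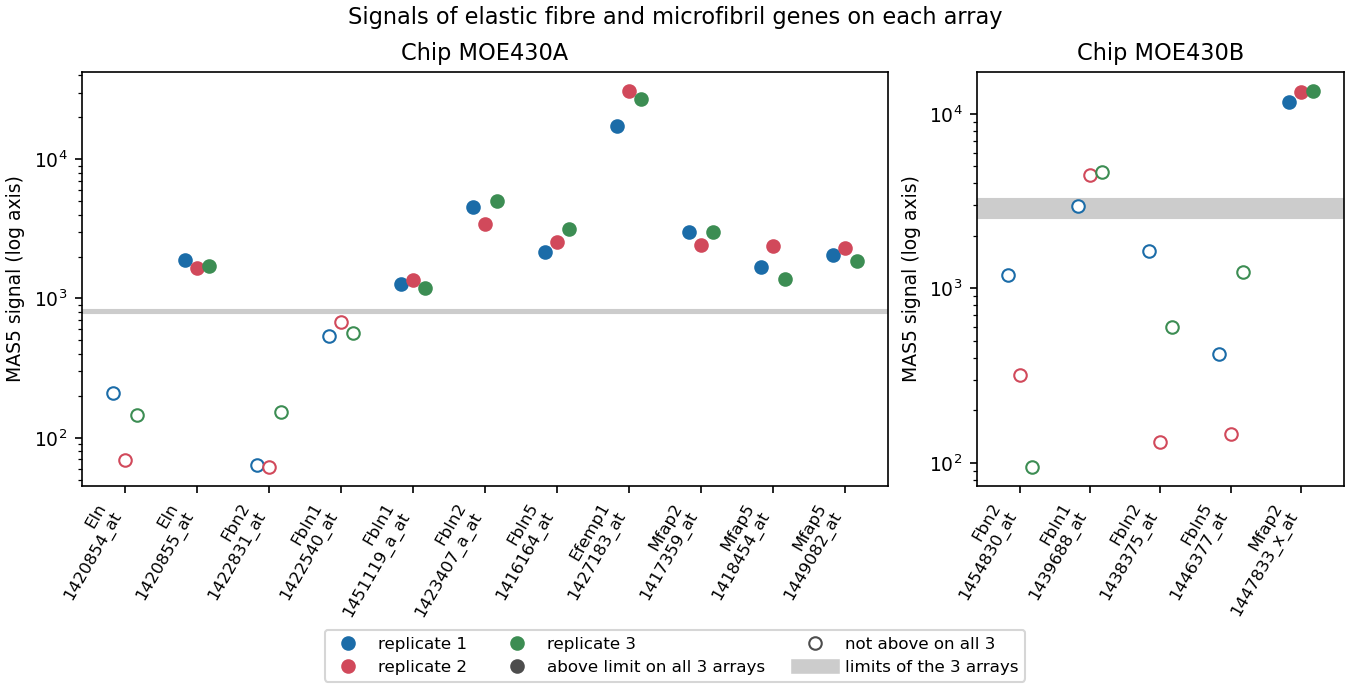
MAS5 signal (log axis) of each of the 16 probe sets on each array, MOE430A at left and MOE430B at right; colours are replicates, filled points are probe sets above the limit on all 3 arrays, and the grey band spans the limits of the 3 arrays. Efemp1 stands at 17326 to 30804, far over the band, both probe sets of Fbn2 lie below it, and Eln and Fbln1 each have MOE430A probe sets on both sides of it.

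Elastin, whose soluble precursor tropoelastin forms the rubber-like core of the fibre, was covered by 2 MOE430A probe sets that disagreed. The probe set 1420855_at read 1885, 1654 and 1701 in replicates 1, 2 and 3, a mean of 1747 ± 122 (SD, n = 3). All 3 arrays were more than 2.07-fold over their limits, and they lay close together, with a coefficient of variation (CV, the SD as a percentage of the mean) of 6.999%. The probe set 1420854_at read 208.4, 69.0 and 145.0, and all 3 values were below the limit. Both probe sets were designed from the same sequence record. The call for elastin therefore rests on 1 probe set of 2. A split of this kind was common on MOE430A: among 3051 genes with exactly 2 probe sets there, 33.7% had 1 above background and 1 not. Probe positions were not used here, and the part of the 3′ bias of these RNA samples in such splits was not tested.

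The fibrillins polymerise into the microfibril scaffold, and of these only Fbn2 was analysed here. On MOE430A its probe set 1422831_at read 64.1, 61.8 and 152, every value at less than 0.186 times its limit. On MOE430B its probe set 1454830_at read 1187, 320.6 and 94.7 in replicates 1, 2 and 3, again below the limit on every array. The chips disagreed on replicate 3, which was highest on MOE430A and lowest on MOE430B. Neither Fbn2 probe set gave signal above its limit, and the part of the 3′ bias of these RNA samples in this was not tested. The other fibrillin, Fbn1, had no single-gene probe set in the annotation given, so its level was not read here.

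Among the fibulins, Efemp1 gave the strongest signal over background of the group. Efemp1 encodes fibulin-3, and mice that lack it lose elastic fibres in fascia and develop hernias. Its single probe set, 1427183_at on MOE430A, read 17326, 30804 and 26904 in replicates 1, 2 and 3, a mean of 25011 ± 6936 (SD, n = 3). The signal was 21.2-fold to 39.3-fold over the limit on each array. Its CV of 27.7% was among the largest of the group's probe sets above background, with replicate 2 at 1.78 times replicate 1. Among all MOE430A probe sets above background, 7.12% had a larger CV. The spread rested on replicate 1: the SD of log2 signal was 0.43 over the 3 arrays and 0.14 without it.

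Fbln5 encodes fibulin-5, which binds tropoelastin, cell-surface integrins and lysyl oxidase-like 1, and mice without it fail to form normal elastic fibres. On MOE430A its probe set 1416164_at read 2157, 2538 and 3147 in replicates 1, 2 and 3, a mean of 2614 ± 499 (SD, n = 3). Each array was above its limit, by 2.63-fold at the lowest, and the CV was 19.1%. Its MOE430B probe set 1446377_at read 423, 147 and 1250, all below the limit of that chip.

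Fbln2 encodes a large fibulin found in elastic tissue, vessel walls and basement membranes. Its MOE430A probe set 1423407_a_at read 4507, 3424 and 4977, a mean of 4303 ± 796 (SD, n = 3), with every array at least 4.37-fold over its limit. Its MOE430B probe set 1438375_at read 1642, 131 and 605 and was below the limit on all 3 arrays. The ending _a_at marks probes that match several transcripts of 1 gene. Fbln2 was above background through that probe set only, and lost its call when probe sets of shared sequence were left out.

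Fbln1, a fibulin that lies within the elastin core and also binds fibronectin, was nearest to the limit of the 7 genes above it. On MOE430A its probe set 1451119_a_at read 1264, 1362 and 1185, a mean of 1270 ± 88.8 (SD, n = 3), and 1.44-fold to 1.74-fold over the limit. The other MOE430A probe set, 1422540_at, read 535, 676 and 565 and was below the limit on every array. On MOE430B the probe set 1439688_at read 2972, 4441 and 4647, which put it below the limit in replicate 1 and above it in replicates 2 and 3. Fbln1 thus also passed through a single probe set of the _a_at kind. It was no longer above background with the 99th percentile as the limit, where 27.3% of all genes were above, nor when each gene was read only from its brightest probe set. For Fbln1 the brightest, by mean signal over both chips, was 1439688_at on MOE430B, the chip with the higher limits.

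The microfibril-associated glycoproteins were both above background with each of their 2 probe sets, which no other gene of the group with more than 1 probe set was. Mfap2 binds fibrillins and, in the mouse, active TGF-beta. On MOE430A its probe set 1417359_at read 2997, 2403 and 2998, a mean of 2799 ± 343 (SD, n = 3). On MOE430B its probe set 1447833_x_at, of a kind whose probes can match other genes too, read 11741, 13306 and 13534, a mean of 12860 ± 976 (SD, n = 3). These were at least 3.07-fold and 3.63-fold over the limits of their chips. Mfap2 was the 1 gene of the group above background on both chips.

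Mfap5, the second of these fibrillin-binding glycoproteins, was covered by 2 MOE430A probe sets from the same sequence record. The probe set 1449082_at read 2042, 2292 and 1849 in replicates 1, 2 and 3, a mean of 2061 ± 222 (SD, n = 3). The probe set 1418454_at read 1696, 2372 and 1388, a mean of 1819 ± 503 (SD, n = 3). Both placed replicate 2 highest and replicate 3 lowest. Among the 595 genes with exactly 2 MOE430A probe sets, both above background, 18.0% had their 3 arrays in the same order on both. The 2 Mfap5 probe sets differed in spread, with CVs of 10.8% and 27.7%.

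The spread between arrays of these genes was set beside that of the whole chip. Over the 8 MOE430A probe sets above background the CV ranged from 6.988% to 27.7%, with a median of 15.4%, beside a median of 13.0% over all 7248 such probe sets of the chip. On the log2 scale the median SD of the 8 was 0.23, beside 0.19 for the chip, and without replicate 2 it was 0.10, beside 0.14, so the order of the 2 medians turned with that replicate. Of the 8, 4 had a CV over that chip median: Efemp1, the probe set 1418454_at of Mfap5, Fbln5 and Fbln2. Eln and Fbln1 had the lowest CVs of the 8 as deposited, at 6.999% and 6.988%. That order changed with the scaling and the arrays used: with array median centring the SD of log2 signal of Fbln1 was 0.18, against 0.10 as deposited, and that of Mfap2 was 0.10. The MOE430B probe set of Mfap2 had a CV of 7.59%, beside a chip median of 15.5%.

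**Figure D2:**
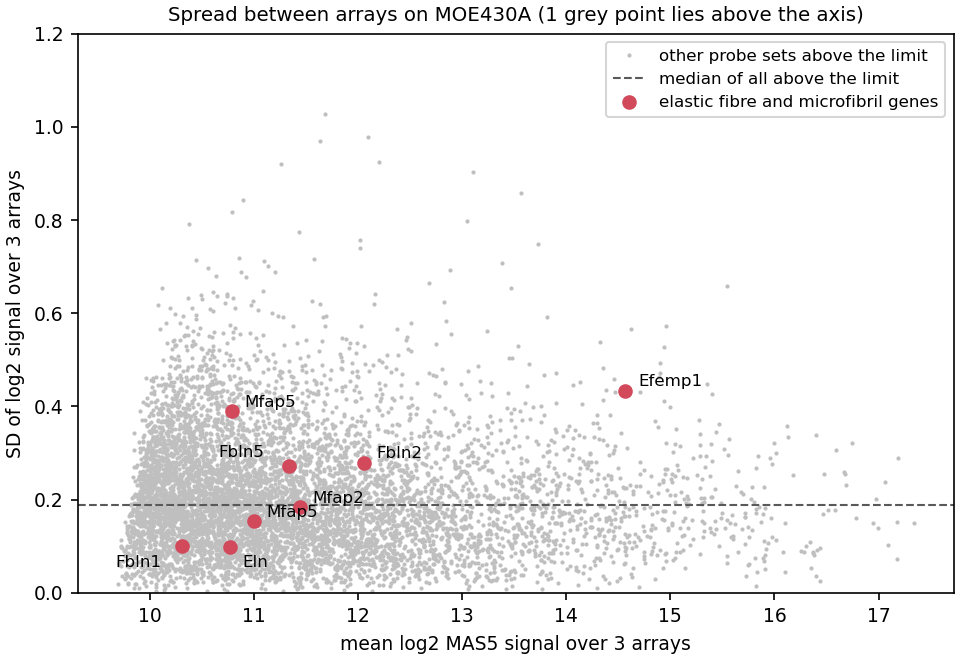
SD of log2 signal against mean log2 signal over the 3 MOE430A arrays; grey points are all other probe sets above background, red points the 8 probe sets of elastic fibre and microfibril genes, and the dashed line is the chip's median SD of 0.19. Efemp1 lies at the right at 0.43, and Eln and Fbln1 lie at 0.10, below the line.

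No replicate was high or low across the group. Of the 8 MOE430A probe sets above background, 4 were highest in replicate 2, 3 in replicate 3 and 1 in replicate 1, while 3 were lowest in replicate 2. Over all 7248 MOE430A probe sets above background, 32.0% were highest and 39.3% lowest in replicate 2. On MOE430B, Mfap2 and the probe set of Fbln1 that reached the limit on some arrays were both lowest in replicate 1, the array from the other chip lot. Of the MOE430B probe sets below the limit on every array, those of Fbn2 and Fbln2 were highest in replicate 1. That of Fbln5 was lowest in replicate 2. The share of all MOE430B probe sets that were lowest in replicate 1 was not computed. Replicate and lot cannot be told apart on that chip.

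**Figure D3:**
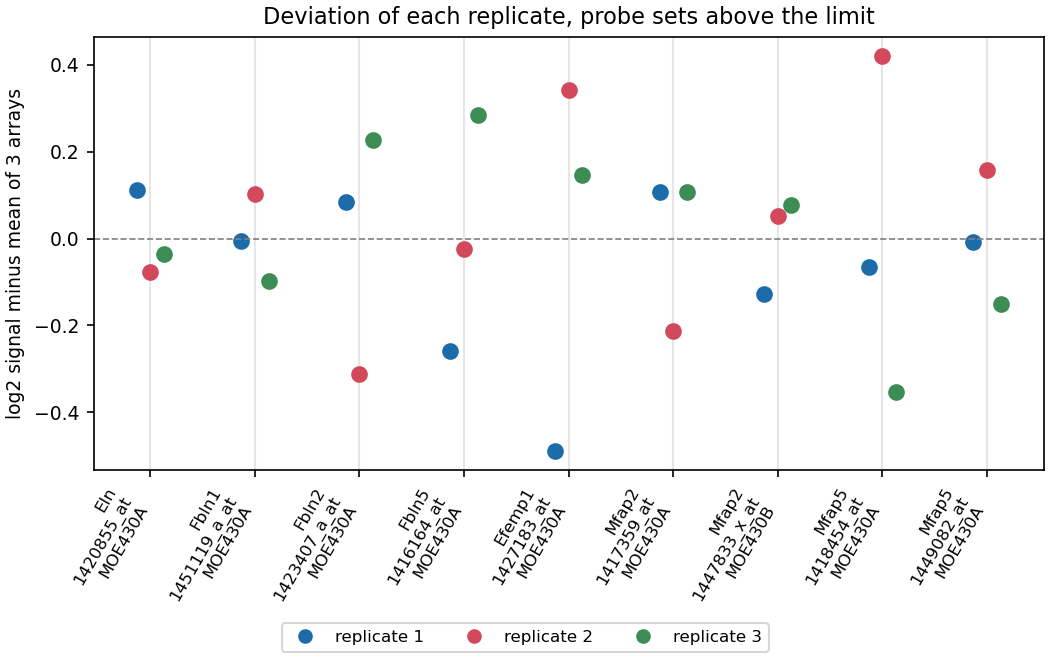
Deviation of each replicate from the mean of its 3 arrays (log2 signal) for the 9 probe sets above background, coloured by replicate. Replicate 2 is lowest for Eln, Fbln2 and the MOE430A probe set of Mfap2, and highest for Fbln1, Efemp1 and both probe sets of Mfap5.

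Differences between replicates were tested with limma on genes with a probe set whose mean signal passed the mean limit on both chips, with chip as a covariate, so that each replicate had a value from each chip. Of 621 genes in the test, 7 (1.13%) differed between replicates at an adjusted p under 0.05. Only Fbln1 and Mfap2 of the elastic fibre genes had a usable value on both chips, and neither was among the 7. Fbln1 was higher in replicate 2 than in replicate 1 by a log2 difference of 0.34 ± 0.32 (SE), by 0.11 on MOE430A and 0.58 on MOE430B (limma moderated F-test, adjusted p = 0.932, unadjusted p = 0.513). Mfap2 was higher in replicate 3 than in replicate 2 by a log2 difference of 0.17 ± 0.25 (SE), by 0.32 on MOE430A and 0.02 on MOE430B (limma, adjusted p = 0.962, unadjusted p = 0.787). In each case the highest and the lowest of the 3 replicates were picked after the fit. The SE does not allow for that choice, and the F-test covers all 3 replicates rather than the difference given. Both differences were smaller than or close to their errors, which does not show that the replicates were alike. Efemp1, Eln and Mfap5 had no single-gene probe set on MOE430B in the annotation given and could not enter this test. The 1.78-fold difference of Efemp1 between replicates therefore has no second chip to read it against.

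Genes that work with these proteins were read from 8 lists of 57 genes, of which 54 were measured. Of these, 32 (59.3%) were above background, beside 36.4% of all genes, and that share also stands beside each partner list below. Partner genes had 1 to 8 probe sets each. Among all genes with 3 or more probe sets 59.2% were above background, so the shares are not matched for the number of probe sets. Loxl2, Adamts17 and Fkbp10 were not analysed here. The lysyl oxidases, which cross-link tropoelastin and collagen, were above background for 3 of 4, with a median of 3.18-fold over the limit. On MOE430A, Lox averaged 2404 ± 497, Loxl1, the partner of fibulin-5, 8968 ± 636 and Loxl3 2798 ± 269 (SD, n = 3 each). Loxl4 averaged 664 ± 79.9 (SD, n = 3) and was below the limit on every array.

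Some of the latent TGF-beta binding proteins tether inactive TGF-beta to microfibrils. The genes Ltbp1 to Ltbp4 and the 3 TGF-beta ligands made a list of 7. Of these, Ltbp3 and Ltbp4 were above background, and the list's median was 0.892 times the limit. Ltbp3 averaged 14565 ± 291 on MOE430A (SD, n = 3). Ltbp4, which in the mouse is needed for elastic fibre assembly with fibulin-5, averaged 994 ± 236 (SD, n = 3) through an _a_at probe set, and its lowest array was 1.02 times the limit. Ltbp1, at 722 ± 57.2, and Ltbp2, at 417 ± 96.3 (SD, n = 3 each), were below the limit on every array. None of the 3 ligands, Tgfb1, Tgfb2 and Tgfb3, passed on all 3 arrays.

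Other glycoproteins of elastic fibres and microfibrils were above background for 3 of 12, beside 36.4% of all genes, with a list median of 0.427 times the limit. The emilins, found where elastin meets microfibrils, were both above: Emilin1 averaged 1965 ± 175 on MOE430A and Emilin2 averaged 20423 ± 3833 on MOE430B (SD, n = 3 each). The other was Mfap3. Of fibronectin and the cell receptors on which microfibrils assemble, 6 of 8 were above, with a median of 4.82-fold over the limit. Fn1, the fibronectin gene, averaged 19500 ± 3764, and Itgav, the integrin alpha-v subunit that binds fibrillin and fibulin-5, averaged 27535 ± 7948 on MOE430A (SD, n = 3 each). Only 1 of the 2 probe sets of Fn1 and 1 of the 5 of Itgav were above.

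Proteoglycans that bind microfibrils or elastin were above background for 4 of 4, with a median of 28.2-fold over the limit. Vcan, the versican gene, averaged 9012 ± 1334 on MOE430A, and Bgn, the biglycan gene, averaged 58381 ± 7354 (SD, n = 3 each). Proteases that degrade elastin were above for 6 of 9, with a median of 8.51-fold. Mmp2, a gelatinase that also cuts elastin, averaged 86203 ± 2106 (SD, n = 3). Mmp12, the macrophage elastase, read 490, 925 and 1515 in replicates 1, 2 and 3, below the limit in replicate 1. Their inhibitors were above for 5 of 6, with a median of 4.85-fold, Timp1 at 64695 ± 5320 and Timp2 at 31842 ± 1853 (SD, n = 3 each). Of the elastin receptor complex with galectin-3, 3 of 4 were above, with a median of 3.40-fold. Glb1, whose splice form is the elastin-binding subunit, averaged 1648 ± 44.7, and Neu1, its sialidase partner, averaged 798 ± 74.8 (SD, n = 3 each) and did not pass on all 3 arrays.

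**Figure D4:**
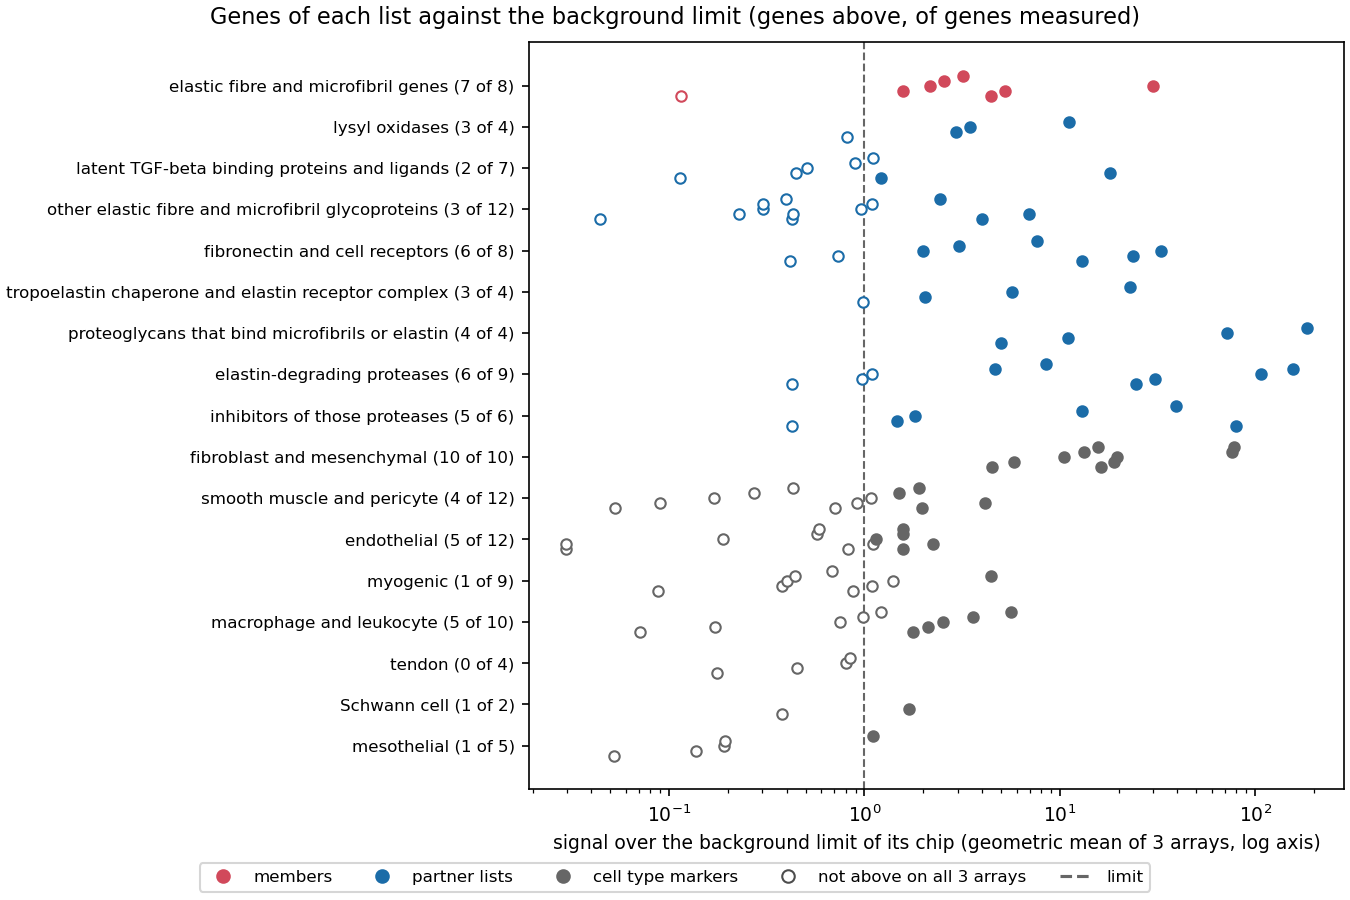
Signal over the background limit of its chip (geometric mean of 3 arrays, log axis) for each measured gene, at its probe set furthest above the limit, in the elastic fibre and microfibril genes (red), partner lists (blue) and cell type marker lists (grey); filled points are above background on all 3 arrays. Of the red points 7 lie right of the dashed limit and Fbn2 lies left of it; proteoglycans and fibroblast markers are filled throughout, and tendon markers are not filled.

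The makeup of the cultures bears on all of these signals, because in bulk RNA fewer cells of a type and less RNA per cell cannot be told apart. Each marker count is to be set beside the 36.4% of all genes above background. Fibroblast and mesenchymal markers were above background for 10 of 10, with a median of 16.0-fold over the limit. Pdgfra, the receptor that marks fibro-adipogenic cells of muscle, averaged 12733 ± 791, and Pdgfrb averaged 9363 ± 4871 through an _a_at probe set (SD, n = 3 each). The other Pdgfrb probe set read 1097, 641 and 545 in replicates 1, 2 and 3, above the limit in replicate 1 only. Smooth muscle and pericyte markers, of cells that also make elastic fibres, were above for 4 of 12 (33.3%), near the share of all genes. Their list median was 0.803 times the limit. Acta2, smooth muscle actin, averaged 3410 ± 700 through a probe set of shared sequence, and Myh11, the smooth muscle myosin, averaged 103 ± 108 (SD, n = 3 each) and was below the limit on every array. Rgs5, Notch3 and Abcc9 were also above, the last 2 of them only through probe sets of shared sequence. Cspg4 and Mcam passed on 2 of 3 arrays and Des on 1 of 3. Tagln, Cnn1, Smtn and Lmod1 were below the limit on every array, as Myh11 was.

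Endothelial markers were above for 5 of 12 (41.7%), near the 36.4% of all genes. These were Kdr, Esam, Egfl7, Robo4 and Cldn5, at 1.15-fold to 2.26-fold over the limit. Pecam1 and Cdh5 were not above on all 3 arrays, at 164 ± 81.3 and 908 ± 200 (SD, n = 3 each), though Cdh5 passed on 2 of 3. Myogenic markers were above for 1 of 9, Chrna1, while Pax7 and Myf5 averaged 304 ± 11.9 and 76.8 ± 32.4 (SD, n = 3 each), below the limit on every array. Myod1 and Myog each passed on 2 of 3 arrays, with Myod1 below the limit in replicate 2 and Myog below it in replicate 1. Mymk passed on 1 of 3. Macrophage and leukocyte markers were above for 5 of 10, with Csf1r at 2925 ± 555 above and Ptprc at 628 ± 220 (SD, n = 3 each) not above on all 3 arrays. Tendon markers were above for 0 of 4, Scx and Tnmd among them. Of the Schwann cell markers measured, 1 of 2 was above, Sox10. Of mesothelial markers 1 of 5 was above, Krt8, with Msln and Upk3b below the limit on every array. Sox10 and Krt8 each passed through only 1 of 3 probe sets, of the _a_at kind. Their lowest arrays were 1.29 and 1.03 times the limit. The part of each cell type in the signals of elastin, the fibulins and the microfibril glycoproteins was not tested.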

How the data were processed

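The deposited tables hold MAS5 signal intensity for 6 arrays (3 replicates, 2 chips), per the submitters' processing notes, with the MAS5 version not given in the sources used here. The deposited values had a mean of 1500 to 1501 on every array after trimming 2% at each end. Probe sets were named from the platform annotation given, with symbols brought up to date by Entrez number from RefSeq (GRCm38.p6): 20364 of 22690 probe sets on MOE430A and 14499 of 22575 on MOE430B kept a single gene. Probe sets of several genes or none were left out. Background limits came from 151 and 44 reference probe sets, of which 2.65% and 4.55% passed their own rule. Signals of different probe sets were not compared as transcript levels.

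Differences between replicates were tested in R 4.3.3 with limma 3.58.1 (terms chip and replicate, moderated F-test with intensity trend, Benjamini-Hochberg adjustment over all 621 genes), checked on simulated data. Python 3.11.15, numpy 2.4.6, pandas 2.3.3 and matplotlib 3.10.9 did the rest. The number of arrays, 3 per chip, limits the precision.

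The gene group and all lists were chosen with earlier results of these data known. Genes named by rule are all 10 of the group, all lysyl oxidases and latent TGF-beta binding proteins, both emilins and the first 2 genes of every other list. Other list genes named were chosen after their values were seen. Partner and marker levels are those of the probe set furthest above its limit. Other probe sets of the same gene could lie below it. Probe sets above background were 2 of 8 for Vcan, 2 of 4 for Ltbp3, 1 of 2 for Emilin1 and 2 of 3 for Lox. They were 1 of 2 for Loxl1, 1 of 2 for Pdgfrb, 3 of 6 for Timp2, 1 of 3 for Acta2 and 2 of 3 for Csf1r. They were 3 of 3 for Bgn and 2 of 2 for Mmp2. Alternatives tried were other limits, no shared-sequence probe sets, 1 probe set per gene, MOE430A alone, passing on 2 of 3 arrays, other scalings, log2(signal + 50), no signal filter, and each replicate left out.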

Additional observations from a re-analysis of the deposited data

How the results depend on the processing

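The count of elastic fibre and microfibril genes above background was 7 under every alternative except 3: it was 6 with the 99th percentile as the limit and 6 with each gene's brightest probe set alone, both without Fbln1, and 5 without probe sets of shared sequence, where Fbln1 and Fbln2 were lost. Over all genes these 3 settings gave 27.3%, 34.7% and 30.8% above background. The partner genes above background numbered 29 to 40, but the number measured changed with the setting. The highest count, 40 of 54, came with the array median as the limit, beside 53.9% of all genes. The lowest count was 29 of 50 when shared-sequence probe sets were dropped, beside 30.8% of all genes. On MOE430A alone it was 29 of 49, beside 42.7%. No elastic fibre gene was called different between replicates under any alternative. Without a signal filter, 5 of them entered the test, and Fbln2 had the smallest p (limma, unadjusted p = 0.0396, adjusted p = 0.942). The count over all genes moved: 7 as reported, 4 with array median centring, 0 with quantile normalization, 0 with no signal filter (92 unadjusted), 1 with a single probe set per gene and chip, and 0 to 5 with a replicate left out; as reported 64 genes had an unadjusted p under 0.05, and 37 with quantile normalization. The median SD of log2 signal of the 8 MOE430A probe sets above background was 0.23, and 0.10 without replicate 2, 0.22 without replicate 1 and 0.20 without replicate 3; leaving out replicate 2 moved it by more than 1.5 times, and the chip's own median was then 0.14. No paired analysis was possible because the series has 1 group.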
